A study of Mus musculus with 143 samples.

Results

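Cells that carried RNA of the chemokine genes Ccl3 or Ccl4 were set against cells with 0 counts of both genes, within a single gate of microglia, the resident macrophages of the brain. Cells were chosen by their own Ccl3 and Ccl4 values: an expressing cell had either gene at 10 CPM or more, where CPM is a count scaled to 1000000 gene counts of the cell, and 83 of 143 sorted cells met this (58.04%, 95% interval 49.5 to 66.2). The cells with 0 counts of both numbered 59 and are called negative cells here. The remaining cell had 1 count of Ccl3, equal to 1.44 CPM, and entered neither class. All cells carry the same labels: wild type mice of the strain C57BL6N, cerebellum, age P7 (postnatal day 7), and the gate CD45lowCD11b+Gpnmb+Clec7a+. Male animals were pooled and the tissue was broken up on ice with a dounce homogeniser before sorting of live cells into wells, so no cell can be traced to an animal. Smart-seq2, which reads whole transcripts but carries no molecular identifiers, was used for all cells, of which 95 were on plate 1 and 48 on plate 2. The labels give the age as P7, while 1 pooled library's name says adult; the age label was followed.

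Ccl3 and Ccl4 encode small secreted proteins of the CC chemokine family that draw leukocytes towards their source. They act through receptors on the surface of the responding cells, of which CCR1 binds Ccl3. In macrophages and microglia both genes are induced quickly by signalling through NF-κB and AP-1, and they are known from activated microglia in development, ageing and injury. They are also known to be induced when brain tissue is taken apart, together with the immediate early genes such as Fos, Jun and Egr1, so those genes were read as a check of stress during dissociation.

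Because Ccl3 and Ccl4 chose the classes and all cells come from 1 pool of animals, every difference between the classes is a description. Cells are not replicates, so no test was run and no p-value is given. Ratios are expressing over negative cells, as log2 of pooled CPM + 1, where pooled CPM adds the counts of a gene over all cells of a class and scales them to 1000000 gene counts. The plates are technical batches, and values in brackets by plate are log2 ratios on plate 1 and then plate 2. Intervals are exact Clopper-Pearson intervals for shares and exact Poisson intervals for pooled CPM. Those for shares cover the counting error of cells only. Those for pooled CPM treat reads as independent, although several reads can come from 1 molecule, and they leave out the spread between cells. They are too narrow to compare the classes.

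Both classes had the RNA of microglia, and the expressing cells had somewhat more genes detected. All 12 markers of microglia and macrophages were measured, and their summed CPM ran from 20188 to 46334 in expressing cells and from 15235 to 49321 in negative cells. Gene counts per cell had a median of 756516 in expressing cells and 678628 in negative cells, and the median of genes detected was 3391 in expressing and 3105 in negative cells. With each cell thinned to 250000 gene counts, which left out 0 cells, the medians of genes detected were 3277 in expressing and 3017 in negative cells. Gene counts per spike-in count had a median of 26.1 in expressing cells and 22.95 in negative cells. Of 7204 tested genes, 66.3% were detected in a larger share of expressing cells than of negative cells, and the part of this in any single gene below was not tested. No 2 cells had identical values.

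The name chemokine-silent went against the data for the negative cells, since they carried other CC chemokines. Ccl9 was read in 47 of 59 negative cells and Ccl6 in 44. They lacked Ccl3 and Ccl4 RNA at this depth only.

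Ccl3 and Ccl4 lie close together on chromosome 11. In GRCm38, the assembly of the mm10 build named in the submitters' processing notes, Ccl3 is on the minus strand from 83647844 to 83649355 and Ccl4 on the plus strand from 83662584 to 83664683, and their starts are 13229 bases apart. Both are protein-coding. Their transcripts share 0 windows of 50 bases with transcripts of other annotated genes, out of 717 windows for Ccl3 and 611 for Ccl4, so reads of that length could be told apart from other genes.

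The 250 bases before the start of Ccl3 are shown with those of Csf1, Plaur and Atf3, whose levels followed Ccl3 and Ccl4 within the expressing cells, and of Btg2, which was lower in them. Sequences are from RefSeq (GRCm38.p6), and capitals mark matches to AP-1 (TGANTCA), the cyclic AMP response element CRE (TGACGTCA) or the NF-κB consensus, searched on both strands; these motifs did not overlap one another in the windows.
Ccl3, chr11:83649379-83649628, minus strand: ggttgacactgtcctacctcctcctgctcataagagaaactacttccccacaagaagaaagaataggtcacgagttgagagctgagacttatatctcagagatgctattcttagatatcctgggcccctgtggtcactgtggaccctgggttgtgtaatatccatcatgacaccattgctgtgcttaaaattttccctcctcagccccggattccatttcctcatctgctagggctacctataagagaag
Csf1, chr3:107760470-107760719, minus strand: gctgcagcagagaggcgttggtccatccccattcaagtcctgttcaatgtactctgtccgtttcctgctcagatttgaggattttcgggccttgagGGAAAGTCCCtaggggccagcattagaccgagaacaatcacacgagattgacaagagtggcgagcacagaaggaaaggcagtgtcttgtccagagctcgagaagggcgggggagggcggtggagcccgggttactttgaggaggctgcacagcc
Plaur, chr7:24462233-24462482, plus strand: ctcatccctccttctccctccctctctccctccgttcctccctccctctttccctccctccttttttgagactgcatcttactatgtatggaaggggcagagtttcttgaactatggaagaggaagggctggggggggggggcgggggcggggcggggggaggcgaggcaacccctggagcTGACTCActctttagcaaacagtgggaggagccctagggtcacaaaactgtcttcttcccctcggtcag
Atf3, chr1:191183334-191183583, minus strand: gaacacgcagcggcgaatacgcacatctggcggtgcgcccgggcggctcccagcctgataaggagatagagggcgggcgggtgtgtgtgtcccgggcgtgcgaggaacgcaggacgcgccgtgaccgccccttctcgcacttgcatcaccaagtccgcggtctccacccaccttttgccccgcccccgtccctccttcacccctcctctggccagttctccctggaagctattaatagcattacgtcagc
Btg2, chr1:134079156-134079405, minus strand: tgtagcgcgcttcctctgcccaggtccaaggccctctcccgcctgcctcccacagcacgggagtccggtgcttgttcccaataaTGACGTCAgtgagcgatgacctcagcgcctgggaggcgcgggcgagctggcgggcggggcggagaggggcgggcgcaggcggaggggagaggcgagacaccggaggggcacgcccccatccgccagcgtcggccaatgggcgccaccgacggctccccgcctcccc
Csf1 held 1 NF-κB match that begins 154 bases before the start, Plaur an AP-1 match 69 bases before it, and Btg2 a CRE 166 bases before it. The windows of Ccl3 and Atf3 held none of these letters; that of Ccl3 held a PU.1 core (GAGGAA) 33 bases and a C/EBP match (TTNNNCAA) 100 bases before the start, and that of Atf3 a PU.1 core 149 bases before it. Among 32851 windows of this length, 6.75% held the AP-1 letters, 1.55% the CRE, 7.25% the NF-κB consensus, 23.3% the PU.1 core and 33.3% the C/EBP letters. Matches describe the letters of a window and are not binding sites.

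Ccl3 was the more frequent of the pair and ranged widely from cell to cell. Among the expressing cells, 56 had Ccl3 alone at 10 CPM or more, 21 had both genes and 6 had Ccl4 alone. Ccl3 had a lowest value of 0, a median of 143 and a highest value of 1300 CPM over the 83 cells, and its pooled level was 257 CPM (253 to 261). Ccl4 had a median of 0 and a highest value of 605 CPM, with a pooled level of 54.1 CPM (52.3 to 55.9). Per kilobase of exon, pooled Ccl3 was at 335 CPM and pooled Ccl4 at 81.96 CPM in expressing cells. A few cells held much of the RNA: the 10 highest cells carried 42.4% of the summed Ccl3 and 65.6% of the summed Ccl4.

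Both plates gave similar shares of expressing cells, and few cells lay near the limit. The share was 55 of 95 cells on plate 1 (57.9%, 47.3 to 67.96) and 28 of 48 on plate 2 (58.3%, 43.2 to 72.4). Pooled Ccl3 in expressing cells was 285 CPM on plate 1 and 196 CPM on plate 2. The expressing cells nearest the limit had 14.6, 18.5, 21.5, 24.8 and 40.4 CPM of the higher gene, the first through 10 counts of Ccl4. The only cell under the limit with any count was the one at 1.44 CPM.

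**Figure D1:**
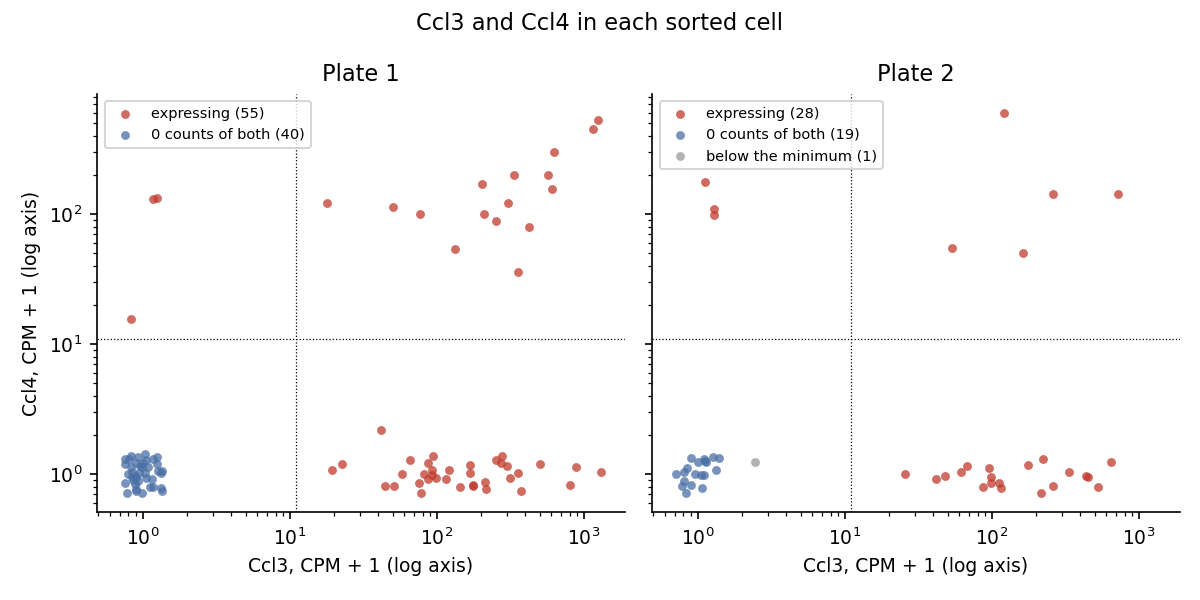
Ccl3 (x axis) and Ccl4 (y axis) in each sorted cell as CPM + 1 on log axes, by plate, with 1 point per cell and colours for the classes; points at 0 CPM are spread slightly around 1. Most expressing cells lie along the Ccl3 axis (56 of 83), 21 have both genes and 6 have Ccl4 alone.

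Ccl4 was found mostly in cells with Ccl3. Counting any read, Ccl3 was in 78 cells, Ccl4 in 28 and both in 22, where independent detection would give 15.3. Ccl4 was read in 28.2% of cells with Ccl3 and in 9.23% of cells without it. On plate 1 these shares were 32.7% and 6.98%, and on plate 2 they were 19.2% and 13.6%, so the excess was smaller on plate 2. Cells with both genes had a median of 261 CPM of Ccl3, against 116.98 CPM in cells with Ccl3 alone. Spearman's rho between the levels was 0.05 over the 83 expressing cells (0.16 and -0.17 by plate) and 0.46 over the 21 cells with both at 10 CPM or more; both sets of cells were chosen on these levels, and leaving out the cells at 0 for both genes lowers the first value by construction.

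Other chemokines of the family differed in both directions, with the abundant ones higher in expressing cells. Of 17 other CC chemokine genes, 9 had 0 counts in every cell of the 2 classes and 7 were measured at a pooled CPM of 1 or more. Ccl2, Ccl6 and Ccl9 were higher in expressing cells on both plates, and Ccl12 and Ccl24 were lower on both. Over all 10874 genes at that level, 25.7% were higher and 22% lower on both plates.

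Ccl2, which attracts monocytes through CCR2, was the CC chemokine at least 2-fold higher on each plate; Ccl7, its close relative, was read in 1 expressing cell and 0 negative cells. It ran from 0 over a median of 0 to a highest value of 1321 CPM in expressing cells, and from 0 over a median of 0 to 181 CPM in negative cells. Most cells of both classes had none, and the ranges overlapped. Ccl2 was read in 28 of 83 expressing cells (33.7%, 23.7 to 44.9) and in 10 of 59 negative cells (16.9%, 8.44 to 28.97), and after thinning in 32.5% and 16.9%. Pooled Ccl2 was 82.6 CPM (80.4 to 84.9) in expressing and 16.2 CPM (15.0 to 17.5) in negative cells, a log2 ratio of 2.28, with 2.64 on plate 1 and 1.36 on plate 2. Reads of it were found in 10 of 21 cells with both defining chemokines, in 15 of 56 with Ccl3 alone and in 3 of 6 with Ccl4 alone.

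Ccl9 and Ccl6, chemokines of macrophages in rodents, were abundant in both classes and differed less. Ccl9 ran from 0 over a median of 633 to 3191 CPM in expressing cells and from 0 over a median of 221 to 3237 CPM in negative cells. Its pooled level was 780 CPM in expressing and 460 CPM in negative cells, a log2 ratio of 0.76 (0.97 and 0.43 by plate). Ccl6 had pooled levels of 307 CPM in expressing and 254 CPM in negative cells, a log2 ratio of 0.28 (0.08 and 0.71). The ranges of both genes overlapped almost entirely, and 1.97% of the 50-base windows of Ccl9 occur in other annotated genes. Ccl12, a ligand of CCR2 in mice, was read in 9 of 83 expressing cells and 13 of 59 negative cells, at pooled levels of 4.50 and 18.1 CPM, with log2 ratios of -1.96 and -0.32 by plate.

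Ccr1, a receptor for Ccl3, was read in similar shares of both classes. It had a count in 8 of 83 expressing cells and 5 of 59 negative cells, at pooled levels of 20.9 and 25.01 CPM, and its ratio differed in sign between plates (0.43 and -1.68). Ccrl2, an atypical receptor that binds the attractant chemerin, and Cxcr3 were the 2 members higher on both plates. Each was read in expressing cells only, and in under the 10% of cells asked of a tested gene. Cxcr3 had a count in 3.61% of expressing cells. Ccrl2 was read in 8 of 83 expressing cells, up to 240 CPM, and in 0 of 59 negative cells, which allows a share of up to 6.06% by the exact interval. Its pooled level was 14.3 CPM in expressing cells. Cx3cr1, the fractalkine receptor of microglia, had pooled levels of 3268 CPM in expressing and 3901 CPM in negative cells (-0.29 and -0.19 by plate). Of 8 measured receptors, 2 (25%) were higher and 2 (25%) lower on both plates, beside 25.7% and 22% over all 10874 genes.

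Cytokine genes were more often higher than lower in expressing cells. Of 21 listed genes, 13 were measured; 6 were higher on both plates, namely Il1a, Il15, Csf1, Osm, Tnfsf9 and Tnfsf12, and 2 were lower on both, Il16 and Ebi3. The 6 and 2 were 46.2% and 15.4% of the measured members, beside 25.7% and 22% over all 10874 genes. The median log2 ratio of the list was 0.56, beside 0.02 over all measured genes. Il6, Il10, Il12b, Il34, Csf2, Csf3 and Lif had 0 counts in both classes, and Tnf was read in 1 expressing and 2 negative cells.

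Osm, the oncostatin M gene of the interleukin-6 family, was read in 10 of 83 expressing cells (12.05%, 5.93 to 21.0), up to 525 CPM, and in 0 of 59 negative cells, which allows a share of up to 6.06% by the exact interval. Pooled Osm was 24.7 CPM in expressing cells, and 1 cell held 26.5% of it. The 10 cells were spread over both plates, 4 on plate 1 and 6 on plate 2. Il1a, the alarm cytokine interleukin-1 alpha, was read in 25 of 83 expressing cells, up to 893 CPM, and in 9 of 59 negative cells, up to 235 CPM. Pooled Il1a was 60.3 CPM in expressing and 21.9 CPM in negative cells, and 0 of the 19 negative cells of plate 2 had a count. Without a count in that group, the plate 2 ratio of Il1a depends on the pseudocount; on plate 1 the log2 ratio was 0.74.

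Csf1, a growth factor of macrophages that signals through Csf1r, was the most abundant of these genes. It ran from 0 over a median of 192 to 1743 CPM in expressing cells and from 0 over a median of 86.3 to 1314 CPM in negative cells. Pooled Csf1 was 353 CPM (349 to 358) in expressing and 179 CPM (175 to 183) in negative cells, a log2 ratio of 0.98, with 0.92 on plate 1 and 1.09 on plate 2. The ranges overlapped, while the share of cells with a count was 85.5% (76.1 to 92.3) in expressing and 67.8% (54.4 to 79.4) in negative cells. Median Csf1 was 403 CPM in cells with both Ccl3 and Ccl4, 162 CPM in those with Ccl3 alone and 45.7 CPM in the 6 with Ccl4 alone.

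Cells with any of Ccl2, Osm, Ccrl2 or Il1a at 10 CPM or more, a set chosen after the values were seen, were counted by class. They made up 15 of 21 cells with both chemokines, 31 of 56 with Ccl3 alone, 5 of 6 with Ccl4 alone and 16 of 59 negative cells. At least 2 of these genes were found together in 7 cells with both chemokines, 9 with Ccl3 alone and 1 with Ccl4 alone, against 2 negative cells. Osm and Ccrl2 had 0 counts in negative cells, so only Ccl2 and Il1a could count there. The contrast thus follows at least in part from the choice of genes and is not separate support.

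**Figure D2:**
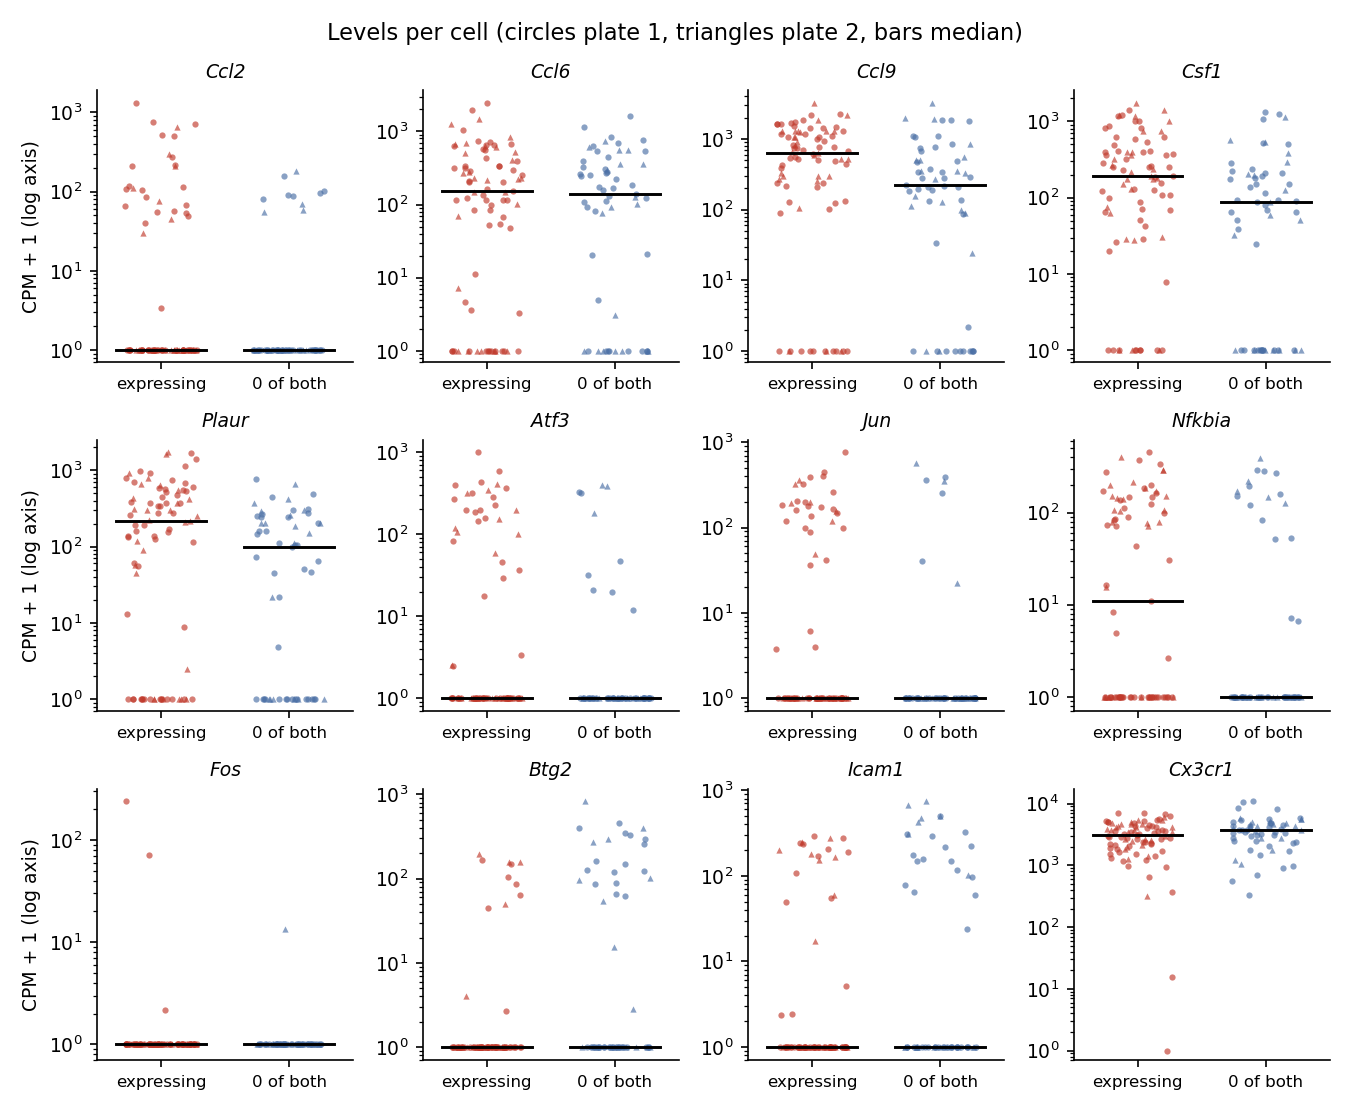
CPM + 1 on log axes in each cell for 12 genes, expressing cells on the left of each panel and cells with 0 counts of both on the right; circles are plate 1, triangles plate 2, and bars the median over the class. The classes overlap for every gene, with medians of 192 against 86.3 CPM for Csf1 and 216 against 96.2 CPM for Plaur.

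Genes of the NF-κB pathway differed in both directions. This family of transcription factors is held inactive by inhibitor proteins whose own genes are among its targets. Of 22 measured genes, 7 (31.8%) were higher in expressing cells on both plates and 5 (22.7%) lower. Over all 10874 genes these shares were 25.7% and 22%. The median log2 ratio of the list was -0.20 over both plates together, against 0.02 on plate 1 and 0.09 on plate 2. The 7 were Nfkbia, Nfkbib, Nfkbie, Tnfaip3, Tnip1, Bcl3 and Cd83, and the 5 were Nfkb1, Rela, Nfkbiz, Icam1 and Map3k8. The inhibitors and subunits were each mixed: Nfkbiz, of the inhibitor family, was lower (-1.53 and -1.41), and Nfkbid, Rel, Relb and Nfkb2 differed in sign between plates.

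Nfkbia, the inhibitor IκBα, was read in 45 of 83 expressing cells (54.2%, 42.9 to 65.2) and in 17 of 59 negative cells (28.8%, 17.8 to 42.1). Its pooled level was 74.1 CPM in expressing and 46.01 CPM in negative cells (0.45 and 1.02 by plate), with highest cells at 456 and 391 CPM. Tnfaip3, the feedback inhibitor A20, was read in 17 of 83 expressing cells, with a pooled level of 41.6 CPM, and in 7 of 59 negative cells, with 19.4 CPM (0.60 and 2.33). Icam1, an adhesion receptor and known target of the pathway, went the other way and was at least 2-fold lower on each plate. It ran up to 289 CPM with a pooled level of 36.8 CPM in expressing cells, and up to 752 CPM with 101.2 CPM in negative cells (-1.21 and -1.70), with a median of 0 in both. Nfkb1 had pooled levels of 43.01 CPM in expressing and 61.7 CPM in negative cells (-0.29 and -1.03). Rela had 39.8 CPM in expressing and 49.98 CPM in negative cells (-0.24 and -0.51).

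Genes of Toll-like receptor sensing were likewise mixed, with 6 of 20 (30%) higher and 4 (20%) lower on both plates. Over all 10874 genes these shares were 25.7% and 22%. Traf6, a ubiquitin ligase downstream of Toll-like receptors, was at least 2-fold higher on each plate, at 29.2 CPM in expressing and 6.33 CPM in negative cells. It was the 1 such gene among 17 tested members, beside 1.8% of all tested genes. Traf6 reached the limit of 10 pooled CPM for a tested gene only through the expressing cells. Tlr4, the receptor for bacterial lipopolysaccharide, was at 36.5 CPM in expressing and 56.4 CPM in negative cells (-0.41 and -1.35). Traf6 had a count in 21.7% of expressing and 11.9% of negative cells.

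The immediate early genes, read as a check of dissociation stress, were mixed in direction, in shares near those of all genes. Of 40 listed genes, 7 had 0 counts and 30 were measured. Of these, 7 (23.3%) had a higher level in expressing cells on each plate, 6 (20%) a lower level on each, and 17 did neither. Over all 10874 genes at 1 pooled CPM or above, 25.7% were higher and 22% lower on both plates. The median log2 ratio of the list was 0.12, with 0.42 on plate 1 and -0.15 on plate 2. Expressing cells had a median of 7 of these genes at 10 CPM or more (range 2 to 12) and negative cells a median of 6 (range 2 to 12). The summed level of the list ran from 439 over a median of 1284 to 4020 CPM in expressing cells, and from 87.3 over a median of 1107 to 6598 CPM in negative cells.

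Fos and Egr1, among the genes that usually lead this response, were nearly absent from both classes, whereas Jun and Ier2 were not. Fos, a subunit of AP-1, was read in 3 of 83 expressing cells, up to 241 CPM, and in 1 of 59 negative cells, at 12.4 CPM. Egr1, a zinc-finger factor induced within minutes, was read in 2 of 83 expressing and 2 of 59 negative cells. Ier2, another early gene, was read in 22 of 83 expressing and 9 of 59 negative cells (0.72 and -1.12). Hspa1a and Hspa1b, the inducible heat shock proteins, and the immediate early genes Fosb, Fosl1, Egr3, Dusp2, Dusp4, Nr4a3 and Arc had 0 counts. Of 10 measured heat shock genes, 2 (20%) were higher and 1 (10%) lower on both plates, beside 25.7% and 22% over all 10874 genes.

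A few members of the list nevertheless differed, in both directions. Atf3, a stress-induced repressor of the AP-1 family, was read in 31 of 83 expressing cells (37.3%, 26.97 to 48.7), up to 1002 CPM, and in 10 of 59 negative cells (16.9%, 8.44 to 28.97), up to 398 CPM. Its pooled level was 82.7 CPM in expressing and 29.5 CPM in negative cells, a log2 ratio of 2.1 on plate 1 and 0.32 on plate 2. Jun, another AP-1 subunit, was read in 31 of 83 expressing and 7 of 59 negative cells, at pooled levels of 76.7 and 33.8 CPM. The Jun ratio was 1.82 on plate 1 and -0.10 on plate 2, so its difference was seen on plate 1 only. Myc, a growth-related factor, had pooled levels of 91.9 CPM in expressing and 54.9 CPM in negative cells, with ratios of 1.23 and -0.17.

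Btg2, an antiproliferative gene that is itself an immediate early target of p53 and growth signals, was the clearest exception. It ran from 0 over a median of 0 to 195 CPM in expressing cells and from 0 over a median of 0 to 838 CPM in negative cells. It was read in 12 of 83 expressing cells (14.5%, 7.70 to 23.9) and in 24 of 59 negative cells (40.7%, 28.1 to 54.3). Pooled Btg2 was 14.5 CPM (13.6 to 15.5) in expressing and 87.8 CPM (84.9 to 90.7) in negative cells, a log2 ratio of -2.52, with -2.75 on plate 1 and -2.17 on plate 2. The related Btg1 had pooled levels of 67.6 CPM in expressing and 115.9 CPM in negative cells (-0.93 and -0.34). Junb was at 26.8 CPM in expressing and 43.2 CPM in negative cells, where 1 cell held 36.2% of it.

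Genes reported in other work to be induced in microglia ex vivo were split as well. Of 22 measured, 5 were higher on both plates (Rgs1, Nfkbia, Klf2, Ier5 and Atf3) and 4 lower on both (Nfkbiz, Junb, Jund and Btg2). The median log2 ratio was 0.12. These shares, 22.7% and 18.2%, lay near the 25.7% and 22% over all 10874 genes. This list shares members with the immediate early and NF-κB lists.

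The programme that the gate selects was carried by both classes, with small differences. Genes of proliferative-region-associated microglia (PAM), shared with disease-associated microglia (DAM), were higher in expressing cells on both plates for 15 of 28 members and lower for 4, with a median log2 ratio of 0.11, and with spike-in totals for 24 and 1. Spp1, osteopontin, had pooled levels of 45713 CPM in expressing and 41819 CPM in negative cells (0.10 and 0.19), and Gpnmb 4095 and 3805 CPM (0.14 and 0.04). Fabp5, a fatty acid carrier, had medians of 391 CPM in expressing and 196 CPM in negative cells, with ratios of 0.86 and 0.90. Cst7, cystatin F, an inhibitor of lysosomal proteases, was at least 2-fold higher on each plate, at 40.3 CPM in expressing and 15.3 CPM in negative cells (1.00 and 1.88). Apoe was slightly lower, at 31923 CPM in expressing and 36030 CPM in negative cells (-0.21 and -0.10).

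Homeostatic microglial genes were lower in expressing cells on both plates for 10 of 25 members and higher for 0, with a median log2 ratio of -0.21 (-0.26 and -0.01), but with spike-in totals in place of gene totals 5 were lower and 6 higher. The purinergic receptor P2ry12 had pooled levels of 346 CPM in expressing and 523 CPM in negative cells (-0.73 and -0.12). Tmem119, a membrane protein of microglia, was at least 2-fold lower on each plate, at 41.7 CPM in expressing and 91.4 CPM in negative cells, although it was read in similar shares of 24.1% and 28.8%. Csf1r, the receptor for the Csf1 protein, was at 1929 CPM in expressing and 2374 CPM in negative cells, with a ratio of -0.42 on plate 1 and close to 0 on plate 2.

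Scaling moved all such small shifts together. With spike-in totals, the median log2 ratio of all tested genes was 0.19 in place of 0.02. Over the 10874 genes of list level, 34.1% were then higher and 16.1% lower on both plates. On that scale the PAM and DAM list had a median of 0.28 and the homeostatic list -0.04.

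Glycolytic genes had the largest share of members higher in expressing cells among the lists plotted in CPM, while with spike-in totals the PAM and DAM list had a larger one. Of 15 genes, 11 were higher in expressing cells on both plates and 1, the hexokinase gene Hk2, was lower on both, with a median log2 ratio of 0.23, and 11 and 1 again with spike-in totals. Slc2a1, the glucose transporter GLUT1, was read in 41 of 83 expressing cells (49.4%) and 12 of 59 negative cells (20.3%), at pooled levels of 97.5 and 46.2 CPM (1.48 and 0.54). Ldha, lactate dehydrogenase, was at 2702 CPM in expressing and 2180 CPM in negative cells (0.38 and 0.16).

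Cell cycle RNA was not more common in expressing cells. The cycling class, with at least 6 S genes or 8 G2/M genes at 10 CPM or more, held 37 of 83 expressing cells (44.6%, 33.7 to 55.9) and 25 of 59 negative cells (42.4%, 29.6 to 55.9). Its share was 50.9% of expressing and 42.5% of negative cells for plate 1, and 32.1% and 42.1% for plate 2. Of 31 G2/M genes, 12 were lower on both plates and 2 higher, and of 24 S genes 6 and 1; with spike-in totals these were 9 and 4 for G2/M and 1 and 1 for S. Single genes went both ways. Mki67, the proliferation antigen Ki-67, was read in 16 of 83 expressing and 18 of 59 negative cells, at pooled levels of 130.96 and 165 CPM (-0.16 and -1.02). Cdk1, the mitotic kinase, was read in 33 of 83 expressing and 16 of 59 negative cells, at pooled levels of 111.7 and 71.8 CPM (0.87 and -0.08).

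The remaining lists follow, beside 25.7% of all 10874 genes higher and 22% lower on both plates in CPM. Interferon response genes were higher on both plates for 4 of 12 and lower for 0. MHC class II genes were lower for 3 of 7 and higher for 0. Lysosomal genes were higher for 4 and lower for 7 of 24, turning to 14 and 3 with spike-in totals. Lipid genes were higher for 6 and lower for 5 of 18, and phagocytic genes higher for 4 and lower for 2 of 17; with spike-in totals these were 9 and 1, and 8 and 0.

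**Figure D3:**
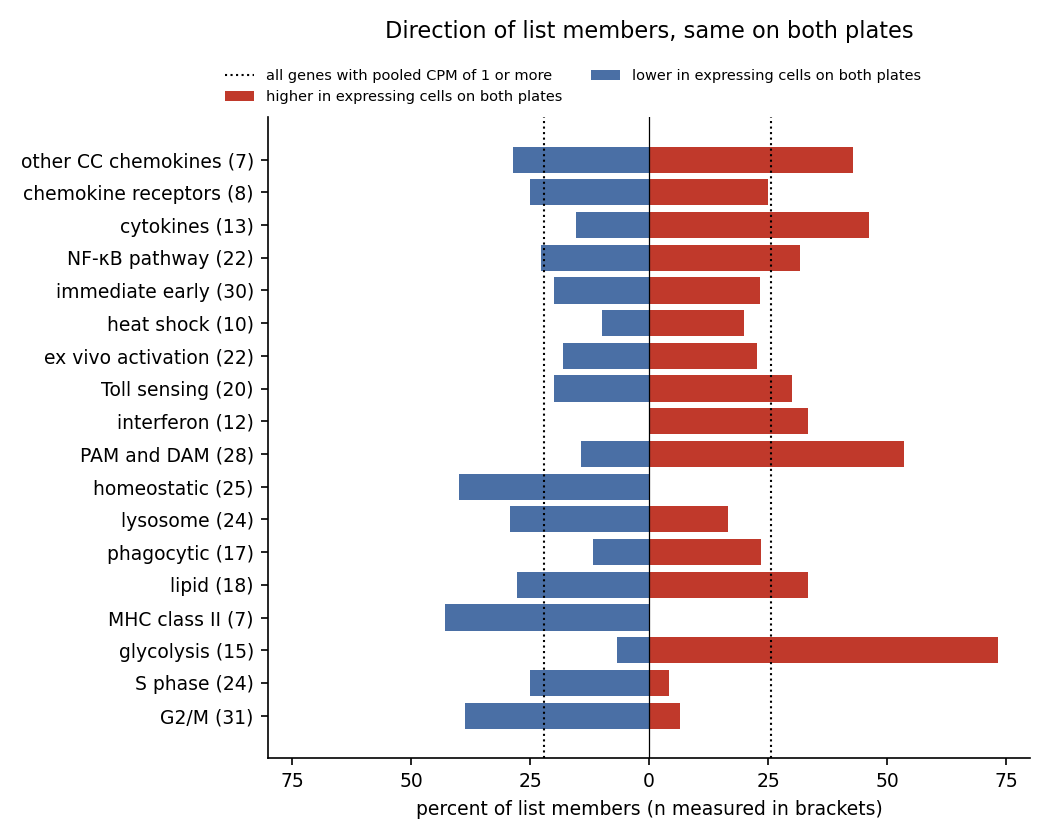
Percent of the measured members of each list that were higher (right) or lower (left) in expressing cells on both plates, in CPM; dotted lines give the same over all 10874 genes at 1 pooled CPM or above, 25.7% and 22%. Glycolysis lies furthest to the right (11 of 15), and homeostatic and MHC class II genes have no member on the right; with spike-in totals PAM and DAM genes lie further right (24 of 28) and 6 homeostatic genes are higher.

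Markers of other cell types were read for blood cells that also make these chemokines. All 11 T and natural killer cell markers in the table had 0 counts in both classes. Of 7 monocyte markers in the table, Ly6c2 and Plac8 had 0 counts, and the summed level had a median of 0 in both classes and a maximum of 865 CPM in expressing and 817 CPM in negative cells. Of the neutrophil markers, Ltf, Mmp9 and Retnlg had 0 counts. S100a8 was read in 6.02% of expressing and 8.47% of negative cells. Camp, Ngp and S100a9 were read in expressing cells only, in 2.41%, 1.20% and 1.20% of them. Csf3r, the receptor for granulocyte colony-stimulating factor, was lower in expressing cells, at 88.8 CPM against 183 CPM in negative cells (-1.25 and -0.65). The summed level of the neutrophil markers reached 1101 CPM in expressing and 919 CPM in negative cells. Among border-associated macrophage markers, Cd163, Lyve1, Cd209f and Clec12a had 0 counts. Their summed level had medians of 727 CPM (0 to 3727) in expressing and 676 CPM (0 to 2604) in negative cells, and 3 of 7 measured members were higher on both plates. Astrocyte markers had a median sum of 0 in both classes, with 3 of 5 measured members higher, 1 lower, and Aqp4, Slc1a2 and Hopx at 0. Oligodendrocyte markers had a median sum of 58.2 CPM (0 to 626) in expressing and 3.72 CPM (0 to 629) in negative cells. Their pooled sums were alike, at 119.8 CPM in expressing and 120.6 CPM in negative cells. Mog, Mobp, Cldn11 and Mal were at 0, with 1 of 4 measured members higher and 2 lower. The part of these markers in the results was not tested.

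Across all genes, few differed by 2-fold on both plates, and the plates did not rank genes alike. Genes were tested at a level of 10 pooled CPM with a count in at least 10% of cells. Of these 7204, 343 (4.76%) were at least 2-fold higher in expressing cells over both plates together and 257 (3.57%) at least 2-fold lower. By any size, 26.5% were higher and 23.8% lower on both plates. On each plate as well as together, 130 genes (1.8%) were at least 2-fold higher and 86 (1.19%) lower, and with spike-in totals 183 and 54. Pearson's r between the log2 ratios of the plates was 0.003 over the 7204 genes, and 50.4% of them had the same sign; genes are not independent replicates.

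**Figure D4:**
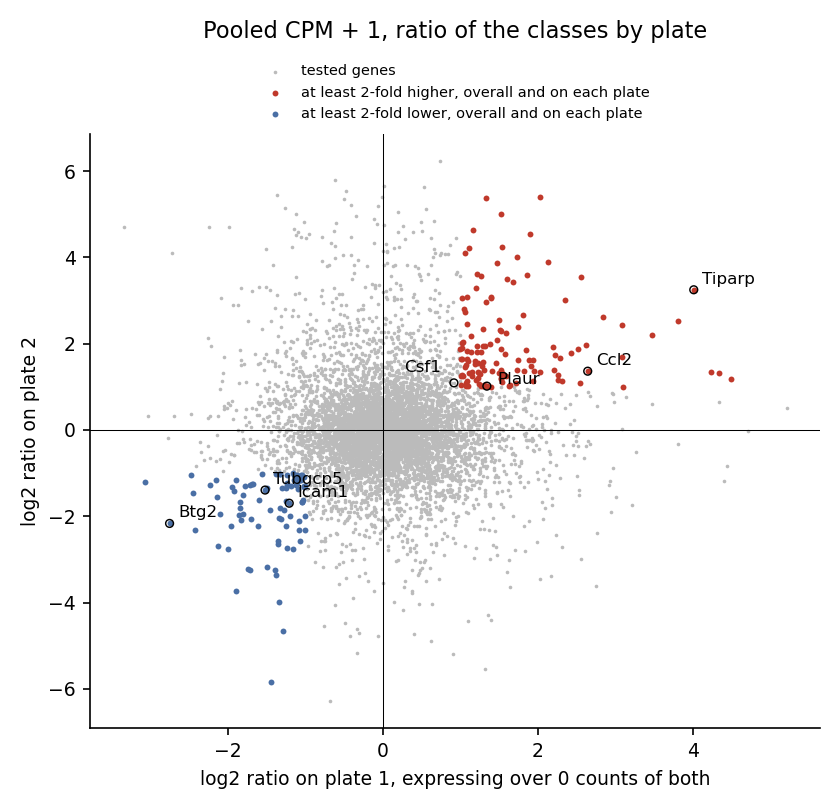
Log2 ratio of pooled CPM + 1 on plate 1 (x axis) and plate 2 (y axis) for 7204 tested genes, expressing over negative cells; coloured points were at least 2-fold higher (130) or lower (86) together and on each plate. The cloud has no slope (r = 0.003). Ccl2, Tiparp and Btg2 are among the coloured points, which were chosen for the same direction on both plates.

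Ranked by the smaller of their plate ratios, the leading genes were mostly low in level and read in few cells. Tiparp, a poly(ADP-ribose) polymerase induced by the aryl hydrocarbon receptor, led, at 22.7 CPM in expressing and 0.69 CPM in negative cells, with a count in 16.9% and 3.39% of cells. It was followed by Mboat1, Max, Elmod3, Tfeb, 4933426M11Rik, Adhfe1, Kdm1a, Osgin2, Cspg4, Plekhm2, Eif2c1, Fam108c, Lzic and Plk3. All of these had under 10 CPM in negative cells, with Plk3 the highest at 9.86 CPM. They therefore reached the limit of 10 pooled CPM only through the expressing cells, and their shared direction on the plates was a condition of the ranking. Max is the partner of Myc and had 20.1 CPM in expressing and 2.27 CPM in negative cells. Tfeb, a master regulator of lysosomal genes, had 25.9 CPM in expressing and 3.47 CPM in negative cells. Cspg4, the proteoglycan NG2, is a marker of oligodendrocyte precursors; it was read in 22 of 83 expressing cells and 3 of 59 negative cells, while Pdgfra and Olig1, other markers of those cells, had 0 counts.

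In the other direction, Ubxn7 led with 10.4 CPM in expressing and 58.7 CPM in negative cells, with a count in 10.8% and 35.6% of cells. After it came Btg2, Lrsam1, Cchcr1, Hmgxb3, Suv39h1, Spata13, Fam129a, Zcchc11, Nr2c1, Galm, Pramef8, Rusc2, Nol8 and Stx17. Lrsam1, at 4.79 CPM in expressing cells, and several others were under 10 CPM there and reached the limit only through the negative cells. Ubxn7 encodes an adaptor of the p97 ATPase. Suv39h1, a histone H3 lysine methyltransferase, had 12.6 CPM in expressing and 57.3 CPM in negative cells. Stx17, the syntaxin of autophagosome fusion, had 12.7 CPM in expressing and 53.9 CPM in negative cells.

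Among the 2223 tested genes with a count in at least 50% of cells, 42 (1.89%) were at least 1.5-fold higher on each plate and 18 (0.81%) lower, a set and a limit chosen after the values were seen. Plaur, the urokinase receptor of myeloid cells, ranked highest. It ran from 0 over a median of 216 to 1732 CPM in expressing cells and from 0 over a median of 96.2 to 753 CPM in negative cells, with pooled levels of 340 CPM (336 to 345) and 145 CPM (141.4 to 148.9) and ratios of 1.34 and 1.02 by plate. Bcl2l1, which encodes the survival protein Bcl-xL, had medians of 186 CPM in expressing and 0 CPM in negative cells, with a count in 84.3% (74.7 to 91.4) and 49.2% (35.9 to 62.5) of cells. The ranges of both genes overlapped between the classes. Mrpl17, Myo1e, Csf1, Faim and Fabp5 were also among the leading members, and Eif4g1, Eif4e and Eif2s2, factors of translation initiation, were in the set.

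The widely detected genes that were lower were led by Tubgcp5, of the gamma-tubulin ring complex, with 35.5 CPM in expressing and 101.2 CPM in negative cells, and Mtus1, with 77.4 and 182 CPM. Commd8, Pias1, Pitpnc1, Tmem176b, Adap2, Cops4 and Abca9 followed. Tmem176b, a membrane protein of myeloid cells, had 98.9 CPM in expressing and 229 CPM in negative cells (-1.36 and -0.76).

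Within the expressing cells, genes were ranked by how their level followed the sum of Ccl3 and Ccl4, as the mean of Spearman's rho on the 2 plates (55 and 28 cells) over 5781 genes with a count in at least 20% of these cells. Plaur was first at 0.53 (0.53 and 0.53), before Lpgat1 at 0.52 (0.34 and 0.70), the heparan sulphate proteoglycan Sdc4 at 0.48 (0.48 and 0.49), Atf3 at 0.48 (0.33 and 0.63) and Csf1 at 0.44 (0.38 and 0.50). The others of the leading 10 were 5430435G22Rik, Wdr48, the potassium channel gene Kcnk13, Alg1 and Gpr137b-ps. Plaur, Sdc4, Csf1 and 5430435G22Rik of this leading 10 were also among the widely detected genes higher by 1.5-fold on each plate. Both rankings rest on the Ccl3 and Ccl4 values of the same cells, and the 1.5-fold set was chosen after the values were seen. Their overlap is a description and not separate support. Lpgat1, in contrast, had pooled levels of 65.5 CPM in expressing and 70.6 CPM in negative cells. Values were lower for Ccl6 (0.36), Jun (0.28), Il1a (0.26), Ccl2 (0.25), Ccl9 (0.15) and Nfkbia (0.11), and Spp1 was at -0.06. The points are cells of a single pool and share its libraries and their depth.

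Levels by subclass give no separate support for that ranking, since the subclasses were cut on the same Ccl3 and Ccl4 values. Cells with both chemokines also had more Ccl3, and the part of this in the levels below was not tested. Median Plaur was 605 CPM in the 21 cells with both, 120 CPM in the 56 with Ccl3 alone and 273 CPM in the 6 with Ccl4 alone, against 96.2 CPM in negative cells. Atf3 was read in 13 of 21 cells with both, 15 of 56 with Ccl3 alone and 3 of 6 with Ccl4 alone, against 10 of 59 negative cells. The cells with both had a median of 3125 genes detected, against 3419 with Ccl3 alone.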

How the data were processed

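The authors deposited raw counts of reads per gene in 143 single cells, with 23337 gene rows and 92 spike-in rows (ERCC). Trim Galore 0.4.3, STAR 2.5.3a, Picard, HTSeq and mm10 are named in the submitters' processing notes, without order or settings; whether counting used strand, and the annotation, are not given in the sources used here. Column sums equalled the labels' total counts in 143 of 143 cells.

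From the deposited counts, CPM were computed by scaling to 1000000 gene counts with spike-ins left out and the ribosomal RNA precursor Rn45s kept in, with Python 3.11.15, numpy 2.4.6, pandas 2.3.3 and scipy 1.17.1. A gene was tested at a pooled CPM of 10 or more and a count in 10% or more of cells, with Ccl3 and Ccl4 left out, a pseudocount of 1, and a call at 2-fold overall and on each plate. List members were described at a pooled CPM of 1 or more. The steps were tested on simulated data. Doublets were not called, as the sort was meant to give 1 cell per well, and wells were not checked for more. The members, lists and settings were chosen with earlier results of these data known.

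Named genes are members of the chemokine, receptor, cytokine, NF-κB, immediate early and heat shock lists with a count in 20% or more of cells, leading members of the other lists, the 15 highest and 15 lowest by the smaller plate ratio with no cell over 25% of the class, and the 10 that best followed Ccl3 and Ccl4; rarer members and the widely detected genes were named after their values were seen. Gene positions are from the GENCODE vM21 annotation. Some genes of the lists are not reported here.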

Additional observations from a re-analysis of the deposited data

How the results depend on the processing

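Of the 216 genes at least 2-fold higher or lower on each plate, 209 kept their direction with Ccl4 alone and 213 outside the cycling class. The first setting uses 27 of the expressing cells with the same 59 negative cells, and the second 46 expressing and 34 negative cells. These are part of the cells that chose the genes, so the kept direction is no independent support. On a single plate, under the filters and under the pseudocount the direction is fixed by how the genes were chosen. Jun was at -0.10 on plate 2 alone, against 1.16 over both plates. The median log2 ratio of the immediate early genes ran from -0.16 (plate 2 alone) to 0.42 (plate 1 alone), so its sign depends on the plate. The share of expressing cells was 37.8% at a limit of 100 CPM and 18.9% for Ccl4 alone, and between 53.8% and 60.5% otherwise. Counts of genes depended on the limits: against 130 higher and 86 lower, there were 528 and 311 with no filter, 12 and 10 at a pooled CPM of 50, and 35 and 19 with a pseudocount of 10. Asking for 2-fold on a single plate gave 624 and 473 on plate 1 and 893 and 885 on plate 2, where a call needs 1 plate and not both. Outside the cycling class there were 285 and 171, of which 68 and 45 were among the 130 and 86. With Ccl4 alone there were 213 and 369, with a limit of 100 CPM 149 lower, and with spike-in totals 54 lower. The filters change how many genes enter (12792 and 3089, against 7204) and the cell limits how many cells; otherwise the cause was not tested. Log2 ratios over the 16 alternatives ran from 1.36 to 3.02 for Ccl2, 1.02 to 2.03 for Plaur, -2.07 to -1.02 for Icam1, -2.75 to -1.98 for Btg2 and 0.68 to 1.46 for Csf1. No paired analysis was possible because all cells form 1 group. The number of cells limits negative calls, since a gene with 0 counts in 59 cells may still be read in up to 6.06% of such cells.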
